A study of Mus musculus with 12 samples.

Results

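The 8 genes described here encode enzymes of cholesterol synthesis (Hmgcs1, Idi1, Fdps, Fdft1, Sqle, Cyp51 and Msmo1) and 1 regulator of that pathway, Insig1. They were chosen by name from 19937 genes with a probe set of their own on the arrays, and all 8 were among the 14217 genes that passed a filter on dim signals. Expression was measured on 12 microarrays of osteoblasts and endothelial cells sorted from long bones of female C57BL/6 mice, with 3 arrays in each of 4 groups. The groups were osteoblasts of tumor-bearing mice, osteoblasts of tumor-free mice, endothelial cells of tumor-bearing mice and endothelial cells of tumor-free mice. In the tumor-bearing mice 500000 EO771 cells, a mouse mammary cancer line, had been injected into the heart and had grown in bone for about 2 weeks. The labels used here give neither the age of the mice, nor what the tumor-free mice received, nor how many mice stand behind an array. Osteoblasts were taken as GFP-, TR119-, CD45-, SCA1-, CD31- and CD51+ cells, and endothelial cells as GFP-, TR119-, CD45-, SCA1+ and CD31+ cells. Each array carried amplified RNA of 5000 cells.

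Cells make cholesterol from acetyl-CoA. HMG-CoA synthase (Hmgcs1) works near the start of the pathway, Idi1 and Fdps build the isoprenoid intermediates, Fdft1 joins farnesyl units into squalene, and Sqle, Cyp51 and Msmo1 carry squalene on through lanosterol to the later sterols. When sterols in the endoplasmic reticulum run low, the transcription factor SREBP2 is released and raises the transcription of most of these genes, whereas INSIG1 holds the SREBP complex back when sterols are plentiful and is itself an SREBP target. In bone the pathway is best known as the target of nitrogen-containing bisphosphonates, which inhibit farnesyl diphosphate synthase (Fdps) in osteoclasts.

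The arrays carried the markers of their labelled cell types. The median of 7 measured osteoblast markers lay between 10.84 and 11.14 on the deposited log2 scale in tumor-bearing and between 10.80 and 11.30 in tumor-free osteoblasts, against 7.02 to 7.46 in tumor-bearing and 6.23 to 7.16 in tumor-free endothelial cells. The median of 8 endothelial markers lay between 10.17 and 10.55 in tumor-bearing and between 10.39 and 10.49 in tumor-free endothelial cells, and at or under 6.18 in all 6 osteoblast arrays. Other cells were also visible. Chondrocyte markers, with a median up to 10.24, were high in osteoblast arrays, and in tumor-free osteoblast replicate 3 the neutrophil marker median was 10.54. In sorted bulk samples such as these, fewer cells of a type and less RNA per cell cannot be told apart. Replicates are called biological in the labels, so p-values measure the spread between these arrays.

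In osteoblasts, 7 of the 8 genes had a higher mean in tumor-bearing than in tumor-free mice, and Insig1 had a lower one, where 46.7% of all genes tested had a higher mean. The median log2 difference of the 8 genes was 0.81, against -0.02 over all genes tested. None of the 8 passed an adjusted p of 0.05 in limma's fit with Benjamini-Hochberg adjustment over all 14217 genes, and 0.0563% of all genes did. At an unadjusted p under 0.05, 3 of the 8 were higher (Hmgcs1, Sqle and Msmo1) and 0 were lower, against 5.8% of all genes higher and 3.97% lower. Only Msmo1 among the 8 had all tumor-bearing arrays above all tumor-free arrays, as did 6.18% of all genes tested.

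Msmo1, which removes methyl groups from sterol intermediates after lanosterol, had the largest difference of the 8. Its log2 values were 7.12, 8.16 and 7.58 in tumor-bearing osteoblasts, against 5.62, 6.51 and 5.89 in tumor-free osteoblasts. The groups did not overlap, and within each group replicate 1 was the lowest array and replicate 2 the highest. The log2 difference was 1.61 (SE 0.29, 95% interval 0.97 to 2.25), a 3.06-fold higher level, with an unadjusted p of 0.000206 and an adjusted p of 0.113 in limma. This placed Msmo1 at rank 26 of 14217 genes by p. It did not pass the threshold, and in the 22 alternative settings tried its adjusted p ranged from 0.0648 to 0.494.

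Sqle encodes squalene epoxidase, a rate-limiting step of the sterol branch. Its log2 values were 6.89, 7.31 and 7.49 in tumor-bearing osteoblasts, against 5.83, 7.08 and 6.03 in tumor-free osteoblasts. Replicate 2 of the tumor-free mice reached into the tumor-bearing range, while the other two tumor-free arrays lay below it. The log2 difference was 0.92 (SE 0.29, 95% interval 0.27 to 1.57), with an adjusted p of 0.352 in limma.

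Hmgcs1 supplies HMG-CoA to the pathway. It had log2 values of 9.11, 8.70 and 7.77 in tumor-bearing osteoblasts, against 6.90, 7.90 and 7.64 in tumor-free osteoblasts. Replicate 3 of the tumor-bearing mice lay within the tumor-free range. The log2 difference was 1.05 (SE 0.45, 95% interval 0.04 to 2.05), with an adjusted p of 0.489 in limma.

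Fdft1, the squalene synthase that commits farnesyl units to sterols, gave log2 values of 7.39, 9.36 and 7.97 in tumor-bearing osteoblasts, against 6.52, 8.15 and 7.04 in tumor-free osteoblasts. The groups overlapped, as tumor-free replicate 2 exceeded tumor-bearing replicates 1 and 3. The log2 difference was 1.01 (SE 0.52, 95% interval -0.15 to 2.16; limma adjusted p = 0.586). Tumor-bearing replicate 2, at 9.36, carried much of it, and without that array the difference was 0.44. A second Fdft1 probe set, dimmer and not used in the fit, read 6.96, 6.83 and 6.94 in tumor-bearing osteoblasts against 5.52, 6.99 and 5.86 in tumor-free osteoblasts, a difference of 0.78. It had the same direction, and again 1 tumor-free array, replicate 2, reached the tumor-bearing level.

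Cyp51, the lanosterol demethylase, showed the widest scatter of the 8 in tumor-free osteoblasts. Its log2 values were 7.90, 7.27 and 7.60 in tumor-bearing osteoblasts, against 6.23, 8.16 and 6.28 in tumor-free osteoblasts. Replicate 2 of the tumor-free mice was above every tumor-bearing array, and the other two tumor-free arrays were well below. The log2 difference was 0.70 (SE 0.42, 95% interval -0.23 to 1.63) with an adjusted p of 0.632 in limma. Without that tumor-free array the difference was 1.33 with a limma adjusted p of 0.0407, which made Cyp51 the only one of the 8 to pass the threshold in this comparison under any alternative.

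The isoprenoid enzymes differed less clearly. Idi1, which interconverts the isoprenoid building blocks, had log2 values of 6.32, 6.40 and 6.66 in tumor-bearing osteoblasts, against 5.23, 6.35 and 5.67 in tumor-free osteoblasts, and replicate 2 of the tumor-free mice was again within the tumor-bearing range. Its log2 difference was 0.71 (SE 0.58; limma adjusted p = 0.725). Fdps had log2 values of 7.63, 6.95 and 7.85 in tumor-bearing osteoblasts, against 6.68, 7.71 and 7.48 in tumor-free osteoblasts, so that the groups lay over each other. Its difference was 0.19 (SE 0.30; limma adjusted p = 0.863), with a 95% interval from -0.47 to 0.85.

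Insig1, the regulator, was the exception in direction. It had log2 values of 8.33, 8.22 and 7.79 in tumor-bearing osteoblasts, against 8.15, 8.92 and 8.26 in tumor-free osteoblasts. The groups overlapped. The log2 difference was -0.33 (SE 0.23, 95% interval -0.84 to 0.18; limma adjusted p = 0.673).

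**Figure D1:**
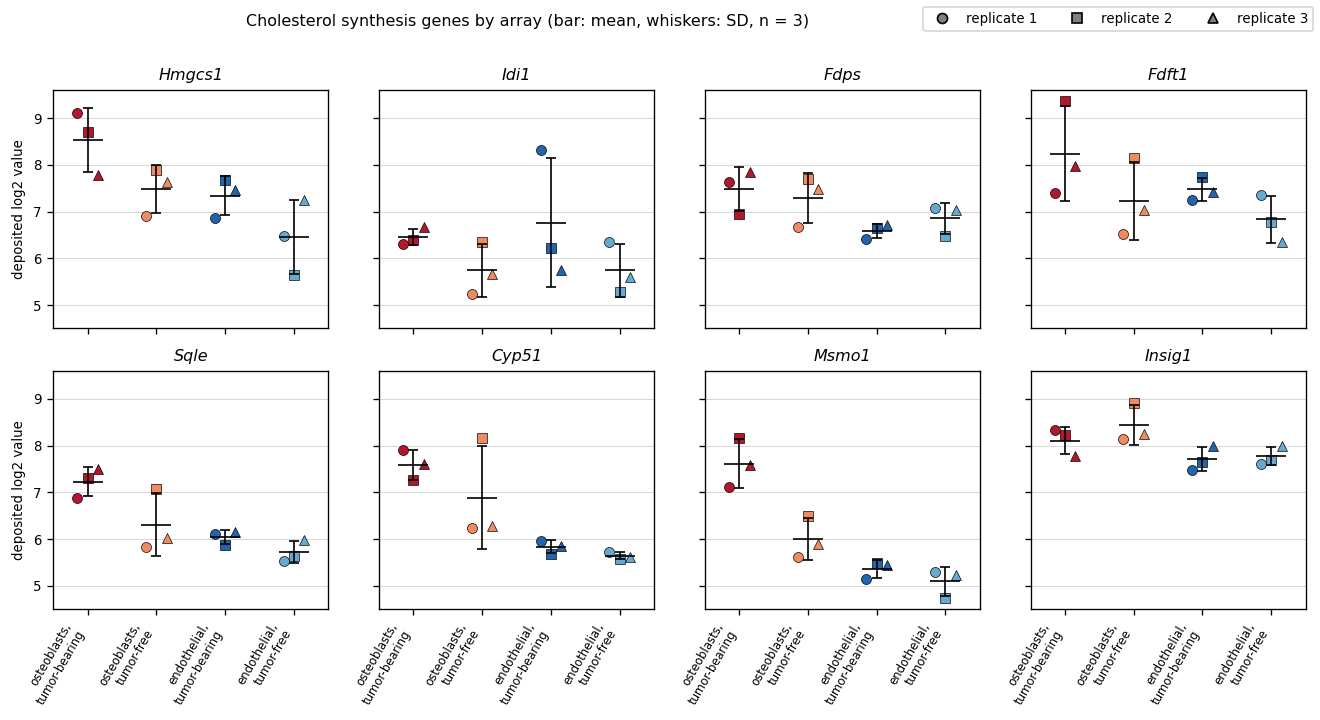
Deposited log2 values of the 8 cholesterol synthesis genes, 1 panel per gene and 1 symbol per array, with the mean and SD of each group of 3. Msmo1 has all tumor-bearing osteoblast arrays (7.12 to 8.16) above all tumor-free ones (5.62 to 6.51), and the square of tumor-free osteoblast replicate 2 is the highest of its group in every panel.

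The scatter among tumor-free osteoblasts was shared by all 8 genes. Replicate 2 was the highest of the 3 tumor-free osteoblast arrays for 8 of 8 genes and replicate 1 the lowest for 8 of 8. After each gene was centred on its mean over the 12 arrays, the average of the 8 genes was 0.71, 0.92 and 0.72 in the tumor-bearing osteoblast arrays, against -0.48, 0.72 and -0.09 in the tumor-free ones. One tumor-free array thus stood at the tumor-bearing level while the other two stood below it. Over the 22 alternatives, most of which left out an array, the osteoblast difference ran from 0.45 to 1.01 for Idi1, from 0.65 to 1.30 for Sqle and from 0.37 to 1.33 for Cyp51. The 8 genes had a median SD of 0.39 in the tumor-bearing osteoblasts, where all genes tested had 0.18, and of 0.55 in the tumor-free ones, where all genes had 0.21.

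Chondrocyte markers varied in part along with this pattern. In tumor-bearing osteoblasts 8 of 9 such markers had the higher mean, against 46.7% of all genes tested. In limma 0 of 9 were called, where only 0.0563% of all genes were. Their median log2 value was 9.77, 10.14 and 8.84 in tumor-bearing osteoblasts, against 8.84, 10.24 and 8.52 in tumor-free osteoblasts, and 5.79 to 6.81 in the 6 endothelial arrays. Replicate 2 was the highest array of its group in tumor-bearing and in tumor-free osteoblasts, both for this median and for the average of the 8 genes. By gene, tumor-bearing replicate 2 was the highest for only 2 of the 8. Tumor-free replicate 1 was the lowest for 8 of 8 genes, but its chondrocyte median was above that of replicate 3. The medians for replicate 3 of the tumor-bearing and replicate 1 of the tumor-free osteoblasts were both 8.84, while Msmo1 read 7.58 in the tumor-bearing one and 5.62 in the tumor-free one. Proliferation markers had medians of 7.29 to 8.25 in tumor-bearing and 7.07 to 8.45 in tumor-free osteoblasts. The summed level of all 9 chondrocyte markers, as log2 of the linear sum, ranged from 11.77 to 13.60 in tumor-bearing and from 11.95 to 13.68 in tumor-free osteoblasts. The part of the chondrocyte and proliferation markers in the result was not tested. Neutrophil markers ran the other way, with medians of 6.23 to 6.78 in tumor-bearing and 6.88 to 10.54 in tumor-free osteoblasts. Their summed levels overlapped, at 10.66 to 12.01 in tumor-bearing and 11.82 to 13.72 in tumor-free osteoblasts. None of the 8 neutrophil markers tested had its groups apart, where 879 of all 14217 genes lay fully higher and 1188 fully lower. Mammary epithelial markers, which EO771 cells could carry, had medians of 5.56 to 5.64 in tumor-bearing and 5.57 to 5.83 in tumor-free osteoblasts, but 1 of them, the keratin gene Krt8, read 10.13 in tumor-bearing replicate 3, against 7.54 or less in the other osteoblast arrays. When replicate 3 of both osteoblast groups was left out, the median difference of the 8 genes was 0.61 and none of them passed the threshold.

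**Figure D2:**
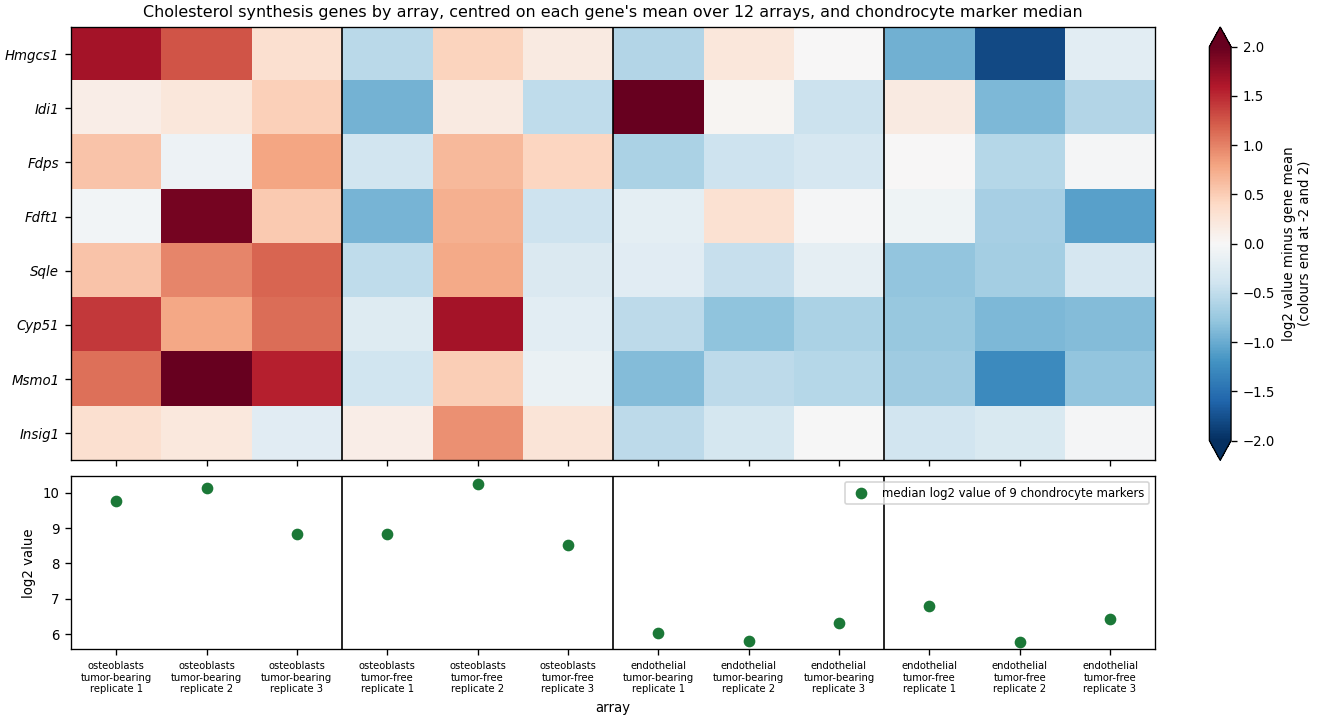
Upper panel, log2 value of each gene minus its own mean over 12 arrays, by array (red higher, blue lower); lower panel, median log2 value of 9 chondrocyte markers in the same arrays. Tumor-free osteoblast replicate 2, at a mean centred value of 0.72, resembles the tumor-bearing osteoblasts, and it also has the highest chondrocyte median, 10.24.

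Promoter sequences were on hand for 5 of the 8 genes (Hmgcs1, Idi1, Cyp51, Msmo1 and Insig1), each spanning 250 bases before to 50 after the annotated start, from RefSeq on GRCm38.p6. Shown are those of Msmo1, which differed most in osteoblasts, of Hmgcs1, the entry enzyme, and of Insig1, whose mean differed the other way. Msmo1 lies at chr8:64733529-64733828 on the minus strand, Hmgcs1 at chr13:119690101-119690400 on the plus strand and Insig1 at chr5:28071162-28071461 on the plus strand. Capitals mark the CCAAT box, read as CCAAT or, on the other strand, ATTGG, and the core of the sterol regulatory element that SREBP binds, written CACNCCAC with N for any base, or its reverse complement.
Msmo1: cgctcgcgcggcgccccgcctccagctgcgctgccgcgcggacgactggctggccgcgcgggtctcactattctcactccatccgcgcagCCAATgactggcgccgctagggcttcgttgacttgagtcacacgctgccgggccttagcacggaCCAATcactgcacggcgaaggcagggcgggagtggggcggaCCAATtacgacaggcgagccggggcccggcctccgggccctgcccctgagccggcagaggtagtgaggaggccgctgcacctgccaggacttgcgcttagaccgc
Hmgcs1: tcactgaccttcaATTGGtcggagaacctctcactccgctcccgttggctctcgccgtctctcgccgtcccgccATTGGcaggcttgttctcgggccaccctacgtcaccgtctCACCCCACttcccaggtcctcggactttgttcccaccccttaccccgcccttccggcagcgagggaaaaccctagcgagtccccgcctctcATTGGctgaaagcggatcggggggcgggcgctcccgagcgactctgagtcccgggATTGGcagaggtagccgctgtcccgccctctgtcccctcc
Insig1: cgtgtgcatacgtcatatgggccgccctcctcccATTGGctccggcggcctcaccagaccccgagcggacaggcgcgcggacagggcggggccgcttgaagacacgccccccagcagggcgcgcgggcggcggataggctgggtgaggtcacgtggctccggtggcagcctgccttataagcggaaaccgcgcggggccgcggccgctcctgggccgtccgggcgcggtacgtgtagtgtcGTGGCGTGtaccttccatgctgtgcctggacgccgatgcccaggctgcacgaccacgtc
The Msmo1 window held 3 CCAAT boxes, with first bases at -160, -96 and -55 from the start, and no match to the sterol core. The Hmgcs1 window held 4 CCAAT boxes and 1 exact core, CACCCCAC, with its first base at -136. In the Insig1 window a core with 1 changed base lay on the other strand, with its first base at -9, along with 1 CCAAT box. Both strands were searched in all 32851 promoters of the table. CACNCCAC was present in 2 of the 5 windows and in 6.24% of all promoters, and every CACCCCAC match is also a CACNCCAC match. The exact form CACCCCAC was in 1 of the 5 and in 2.87%. CCAAT was in 5 of 5 windows and in 37.4% of all promoters, and GGGCGG, the GC box, was in 5 of 5 and in 35.7%. The palindromic E-box CACGTG, left in lower case, occurred in the Insig1 window and in 7.15% of all promoters. These matches describe the letters in the windows and show no binding.

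In endothelial cells, 6 of the 8 genes had a higher mean in tumor-bearing than in tumor-free mice, with a median log2 difference of 0.29 against 0.01 over all genes, of which 51.4% had a higher mean. None passed the threshold in limma, and 0.0141% of all genes did. None reached an unadjusted p under 0.05 either, against 4.59% of all genes in either direction, and for all 8 the groups overlapped, where 5.63% of all genes lay fully higher and 4.87% fully lower. The adjusted p of every one of the 8 rounded to 1. Some markers of other cells moved with the same comparison. Of 7 osteoblast markers, 3 had all tumor-bearing endothelial arrays above all tumor-free ones (Mmp13, Ibsp and Cdh11), and Mmp13 was called, at 7.53, 6.96 and 7.40 in tumor-bearing against 5.40, 4.93 and 5.00 in tumor-free endothelial cells (limma adjusted p = 0.00124). Means of the other osteoblast markers were close in tumor-bearing and tumor-free endothelial cells. They were 7.53 and 7.55 for Col1a1, 7.09 and 6.95 for Col1a2, 6.22 and 6.16 for Alpl, and 5.77 and 5.75 for Sp7. The summed level of the 7, as log2 of the linear sum, was 10.28 to 11.27 in tumor-bearing and 9.63 to 9.87 in tumor-free endothelial cells. Ibsp was the brightest of the 7 in every endothelial array. Of 6 adipocyte markers tested, 2 were likewise apart, and Adipoq read 10.73, 9.58 and 10.23 in tumor-bearing against 8.74, 7.89 and 9.03 in tumor-free endothelial cells. The summed level of the 7 adipocyte markers was 12.67 to 12.99 in tumor-bearing and 12.56 to 12.67 in tumor-free endothelial cells. Fabp4 made up most of that sum, with means of 12.33 in tumor-bearing and 12.37 in tumor-free endothelial cells. Plin1, Cidec and Retn also had close means, at 6.96, 6.02 and 6.21 in tumor-bearing against 7.08, 6.00 and 6.12 in tumor-free ones. The part of these markers in the endothelial values was not tested.

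The largest endothelial differences were those of Idi1 and Hmgcs1. Idi1 had log2 values of 8.33, 6.21 and 5.74 in tumor-bearing endothelial cells, against 6.36, 5.27 and 5.59 in tumor-free endothelial cells, a difference of 1.02 (SE 0.58, 95% interval -0.27 to 2.30). Replicate 1 of the tumor-bearing mice carried most of it, and without that array the difference was 0.23. The second Idi1 probe set read 4.83, 4.80 and 4.84 in tumor-bearing endothelial cells against 5.13, 4.99 and 4.99 in tumor-free ones. On that probe set the tumor-bearing arrays had the lower mean (difference -0.21), and replicate 1 did not stand out, so the 2 probe sets disagree. All of its endothelial values lay below the 40th percentile of their arrays (5.51 to 5.61), so this dim probe set could have missed a change.

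Hmgcs1 had log2 values of 6.87, 7.68 and 7.47 in tumor-bearing endothelial cells, against 6.48, 5.64 and 7.24 in tumor-free endothelial cells. The groups overlapped, with a difference of 0.88 (SE 0.45, 95% interval -0.12 to 1.89). Without tumor-free replicate 2, the lowest array, it was 0.48. Fdft1 had log2 values of 7.26, 7.75 and 7.43 in tumor-bearing endothelial cells, against 7.37, 6.78 and 6.35 in tumor-free ones, a difference of 0.65 (SE 0.52). Its other probe set gave -0.08.

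The sterol-branch enzymes had small differences in endothelial cells, none past the threshold. Sqle had log2 values of 6.10, 5.87 and 6.15 in tumor-bearing endothelial cells, against 5.53, 5.65 and 5.99 in tumor-free ones, a difference of 0.32 (SE 0.29). Cyp51 had log2 values of 5.96, 5.69 and 5.86 in tumor-bearing endothelial cells, against 5.73, 5.59 and 5.62 in tumor-free ones, a difference of 0.19 (SE 0.42). Msmo1 read 5.15, 5.50 and 5.45 in tumor-bearing endothelial cells, against 5.31, 4.75 and 5.23 in tumor-free ones, a difference of 0.27 (SE 0.29). These Msmo1 values lay below the 40th percentile of their arrays (5.51 to 5.61) in 6 of 6 endothelial arrays, so Msmo1 passed the filter on dim signals through its osteoblast arrays alone and a change in endothelial cells could have gone unseen.

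Fdps and Insig1 had slightly lower means in tumor-bearing endothelial cells. Fdps had log2 values of 6.43, 6.65 and 6.71 in tumor-bearing endothelial cells, against 7.07, 6.48 and 7.03 in tumor-free ones, a difference of -0.27 (SE 0.30). Insig1 had log2 values of 7.48, 7.66 and 7.99 in tumor-bearing endothelial cells, against 7.62, 7.70 and 7.99 in tumor-free ones, a difference of -0.06 (SE 0.23). For both genes the groups overlapped.

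Whether the tumor-bearing minus tumor-free difference itself was unequal between osteoblasts and endothelial cells was tested as an interaction. For Msmo1 the osteoblast difference exceeded the endothelial one by 1.34 on the log2 scale (95% interval 0.44 to 2.25), with an unadjusted p of 0.00788 and an adjusted p of 0.612 in limma. With the endothelial values under the 40th percentile of their arrays, the endothelial part of this value may be compressed, so the excess is uncertain. None of the 8 genes passed the threshold, against 0.0281% of all genes. Msmo1 was the only one of the 8 at an unadjusted p under 0.05, against 3.52% of all genes with a larger value in osteoblasts. The other 7 had limma adjusted p of 0.857 or more. Their differences of differences ran from -0.31 for Idi1 to 0.60 for Sqle, and each of those intervals included 0.

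**Figure D3:**
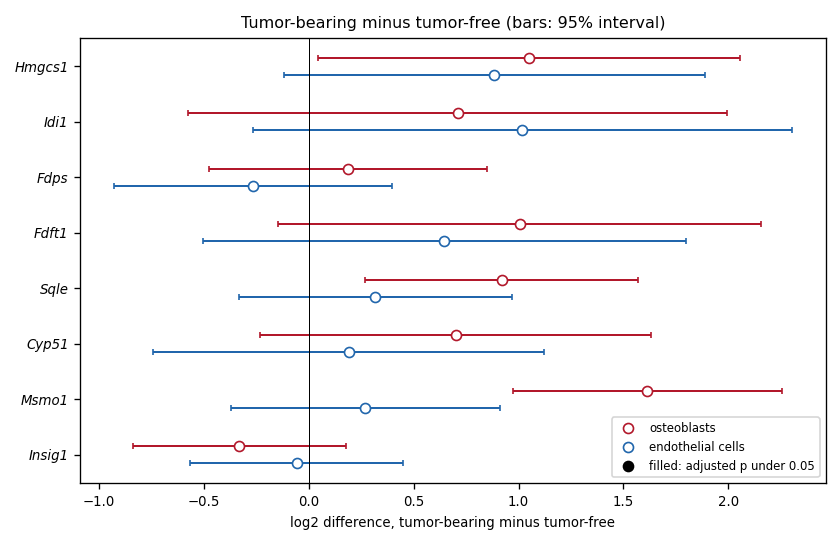
Log2 difference, tumor-bearing minus tumor-free, of each gene in osteoblasts (red) and endothelial cells (blue), with 95% intervals from the limma fit. No point is filled, as 0 of 8 passed the adjusted threshold in either cell type; the osteoblast intervals of Hmgcs1, Sqle and Msmo1 lie above 0.

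Between the cell types, the sterol-branch enzymes Cyp51 and Sqle were higher in osteoblasts than in endothelial cells of tumor-bearing mice. Msmo1 is set apart here, because it entered the test through its osteoblast arrays alone and so had to be higher in them. Of the other 7 genes, 2 passed the limma threshold, Cyp51 and Sqle, and 0 were lower, where 4.89% of all genes tested were called higher and 5.68% lower in osteoblasts. In 4 of these 7 all osteoblast arrays lay above all endothelial arrays, as in 12.1% of all genes.

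Cyp51 stood at 7.27 to 7.90 in the osteoblasts against 5.69 to 5.96 in the endothelial cells, a difference of 1.75 (SE 0.42), or 3.37-fold (limma adjusted p = 0.0231). Sqle stood at 6.89 to 7.49 in the osteoblasts against 5.87 to 6.15 in the endothelial cells, a difference of 1.19 (SE 0.29), or 2.28-fold (limma adjusted p = 0.0263). For both the groups were apart. Each call was lost when any 1 of the tumor-bearing endothelial arrays was left out, with limma adjusted p of 0.0556 to 0.0732 for Cyp51 and 0.0590 to 0.0870 for Sqle. Leaving out tumor-bearing osteoblast replicate 1 (0.0816) or 3 (0.0574) also ended the Cyp51 call, and leaving out replicate 2 (0.0795) or 3 (0.0849) that of Sqle. As a description, Msmo1 stood at 7.12 to 8.16 in tumor-bearing osteoblasts against 5.15 to 5.50 in tumor-bearing endothelial cells, a difference of 2.25 that is understated where the endothelial signal is near the floor of the array.

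Hmgcs1 and Fdps also had all tumor-bearing osteoblast arrays above the endothelial ones but did not pass the test. Their log2 differences were 1.19 (limma adjusted p = 0.140) for Hmgcs1 and 0.88 (limma adjusted p = 0.0963) for Fdps. Fdft1 differed by 0.76, or by 0.20 without tumor-bearing osteoblast replicate 2. Insig1 differed by 0.40 and Idi1 by -0.30. On the probe sets used in the fit, all 3 had limma adjusted p of 0.353 or more and overlapping groups. The second Fdft1 probe set read 6.96, 6.83 and 6.94 in tumor-bearing osteoblasts against 5.97, 5.78 and 5.39 in tumor-bearing endothelial cells. On that probe set the groups were apart, with a difference of 1.19. For Idi1 the direction again depended on the probe set, since the second one gave 1.00.

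In tumor-free mice, all 7 genes other than Msmo1 had a higher mean in osteoblasts than in endothelial cells, against 49.1% of all genes. None of them passed the threshold in limma, where 12.4% of all genes were called in either direction. At an unadjusted p under 0.05, 3 of the 7 were higher in osteoblasts (Hmgcs1, Cyp51 and Insig1), against 10.5% of all genes. The groups did not overlap for Cyp51 (difference 1.24, limma adjusted p = 0.0880) and Insig1 (0.67, 0.0907), and the like held for 13.6% of all genes. Hmgcs1 differed by 1.03 with a limma adjusted p of 0.202. Sqle differed by 0.59 and Idi1 by 0.01. Msmo1, again only described because of how it entered the test, stood at 5.62 to 6.51 in tumor-free osteoblasts against 4.75 to 5.31 in tumor-free endothelial cells. The comparisons of cell types in tumor-bearing and tumor-free mice are not the same test, and each gene's change between them is the interaction given above.

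**Figure D4:**
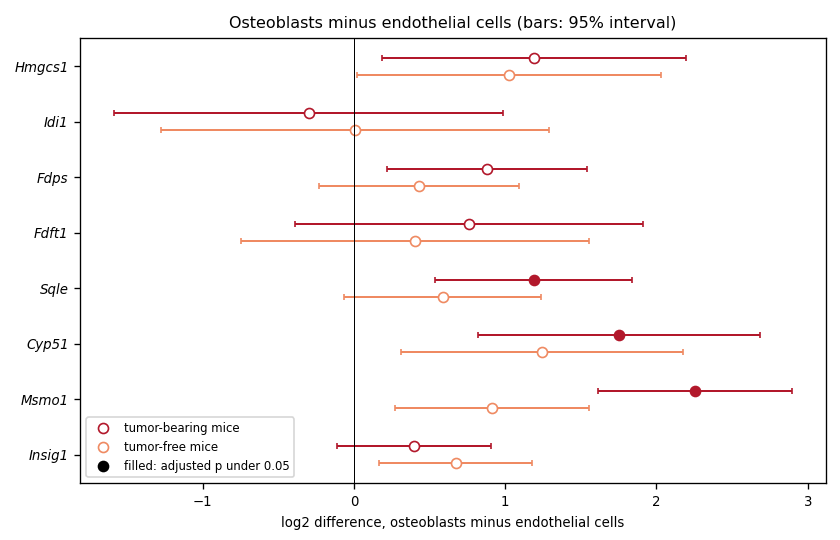
Log2 difference, osteoblasts minus endothelial cells, of each gene in tumor-bearing mice (dark red) and tumor-free mice (orange), with 95% intervals from the limma fit; filled points passed an adjusted p of 0.05. Sqle (1.19) and Cyp51 (1.75) are filled in tumor-bearing mice, as is Msmo1 (2.25), which could only be higher because it entered the test through osteoblasts, and no point is filled in tumor-free mice.

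Across the 4 groups, Hmgcs1, Sqle, Cyp51 and Msmo1 had the same order of means, with tumor-bearing osteoblasts first, tumor-free osteoblasts next, then tumor-bearing and last tumor-free endothelial cells. Neighbours in that order overlapped except tumor-bearing over tumor-free osteoblasts for Msmo1, and tumor-free osteoblasts over tumor-bearing endothelial cells for Msmo1 and Cyp51. Msmo1 entered the test through its osteoblast arrays alone, so its place over the endothelial cells is only described. Fdps and Fdft1 were also highest in tumor-bearing osteoblasts. Insig1 was highest in tumor-free osteoblasts and Idi1 in tumor-bearing endothelial cells, where 1 array carried its mean.

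Over the 12 arrays, the values of 27 of the 28 pairs of these genes were positively correlated, with a median Pearson r of 0.58. The arrays span 2 cell types and 2 tumor states, and after group means were taken out 26 pairs were positive with a median r of 0.34. With group means left in, Sqle and Msmo1 had the highest r of any pair, 0.92, and Idi1 and Insig1 the lowest, -0.29. With group means taken out, Fdft1 and Msmo1 had the highest r, 0.87, and Idi1 and Insig1 again the lowest, -0.19. Against the mean of the other 7 genes r was 0.93 for Sqle, 0.90 for Msmo1, 0.88 for Cyp51, 0.79 for Hmgcs1, 0.70 for Fdft1, 0.64 for Fdps, 0.49 for Insig1 and 0.21 for Idi1. The r values against the mean of the other 7 genes had group means left in. All these r values are descriptions of 12 arrays and carry no test.

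Of 14209 other genes tested, those with a pattern most like the average of the 8 over the 12 arrays were Hspd1 (Pearson r of 0.928), a mitochondrial chaperonin, Twsg1 (0.927), a secreted modulator of BMP signalling, Gfpt2 (0.923), an enzyme of the hexosamine pathway, and Scd1 (0.922), the stearoyl-CoA desaturase. Zbtb38 (0.922), the chondrocyte transcription factor Sox9 (0.922), Emp1 (0.921) and Dnm1 (0.918) followed. Sox9 read 9.75, 10.14 and 8.95 in tumor-bearing osteoblasts against 8.14, 9.77 and 7.91 in tumor-free ones. Like all the other genes just named, it was highest of its tumor-free group in replicate 2. Choosing genes by likeness to the average favours that trait.

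Other genes of sterol and lipid metabolism were examined as 5 lists with 51 genes, of which 41 were measured and 39 tested. In osteoblasts, tumor-bearing against tumor-free, none of the 39 passed the limma threshold; at an unadjusted p under 0.05, 4 were higher and 1 lower, against 5.8% of all genes higher and 3.97% lower. The remaining synthesis enzymes had a median difference of 0.26, with 7 of 9 positive, where 46.7% of all genes were positive. Among them Ggps1, which makes geranylgeranyl diphosphate for protein prenylation, read 8.40, 8.87 and 8.17 in tumor-bearing osteoblasts against 8.02, 8.01 and 7.29 in tumor-free ones. Its groups were apart, with a difference of 0.71 (limma adjusted p = 0.412). Sc5d, a late sterol desaturase, differed by 0.66 with overlapping groups (limma adjusted p = 0.503).

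Uptake and transport genes were divided in the same comparison, with 4 of 8 positive and a median of 0.01, and SREBP control genes with 3 of 6 positive and a median of 0.05. The lipoprotein receptor gene Vldlr read 9.46, 9.75 and 9.38 in tumor-bearing osteoblasts against 9.90, 10.04 and 10.04 in tumor-free ones. All tumor-bearing arrays lay below all tumor-free ones (difference -0.46, limma adjusted p = 0.452), as for 1188 of all 14217 genes tested. Mylip, a ubiquitin ligase that degrades lipoprotein receptors, differed by 0.51 with overlapping groups (limma adjusted p = 0.610). Srebf2, which encodes SREBP2, differed by -0.06 (limma adjusted p = 0.908), its partner Scap by 0.17 and the endoplasmic reticulum ubiquitin ligase gene Rnf139 by 0.24. Insig2, the relative of Insig1 that is not induced by SREBP in the same way, read 9.36, 9.23 and 9.38 in tumor-bearing osteoblasts against 9.42, 9.66 and 9.80 in tumor-free ones, with a difference of -0.31 (limma adjusted p = 0.795). Genes of efflux and storage under the sterol sensor LXR had a median of 0.07 over 6 genes, among them the cholesterol exporter Abca1 at 0.31 (limma adjusted p = 0.613) and the apolipoprotein gene Apoe at -0.28 (limma adjusted p = 0.719).

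The fatty acid synthesis list had 8 of 10 genes positive in this comparison, against the same 46.7% of all genes, and a median of 0.26. Scd1 and Scd2, desaturases that make monounsaturated fatty acids, led it. Scd1 read 8.08, 8.25 and 8.58 in tumor-bearing osteoblasts, against 6.32, 8.07 and 6.74 in tumor-free ones. The groups were just apart, because tumor-free replicate 2 again came close to the tumor-bearing arrays, and the difference was 1.26 (SE 0.36; limma adjusted p = 0.302). Without that array it was 1.77 with a limma adjusted p of 0.0170. Scd2 differed by 0.93, also without overlap (limma adjusted p = 0.419).

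In endothelial cells none of the 39 genes passed the threshold in limma, and 0 reached an unadjusted p under 0.05, against 4.59% of all genes. The list medians there ran from -0.09 for the other synthesis enzymes to 0.14 for SREBP control. Lipa, the lysosomal lipase that frees cholesterol from its esters, differed by 0.64 and Scd2 by 0.59. Other named genes were Hsd17b7, a sterol reductase, at 0.54, Insig2 at 0.53, Mylip at 0.40, Ggps1 at 0.39, Rnf139 at 0.22 and Srebf2 at 0.06. Acly, which supplies cytosolic acetyl-CoA, was at -0.33, Abca1 at -0.31 and the sterol exporter Abcg1 at -0.16. For the difference of the tumor effects, osteoblasts minus endothelial cells, Srebf2 had -0.11 and Insig2 -0.84 (limma adjusted p = 0.832).

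**Figure D5:**
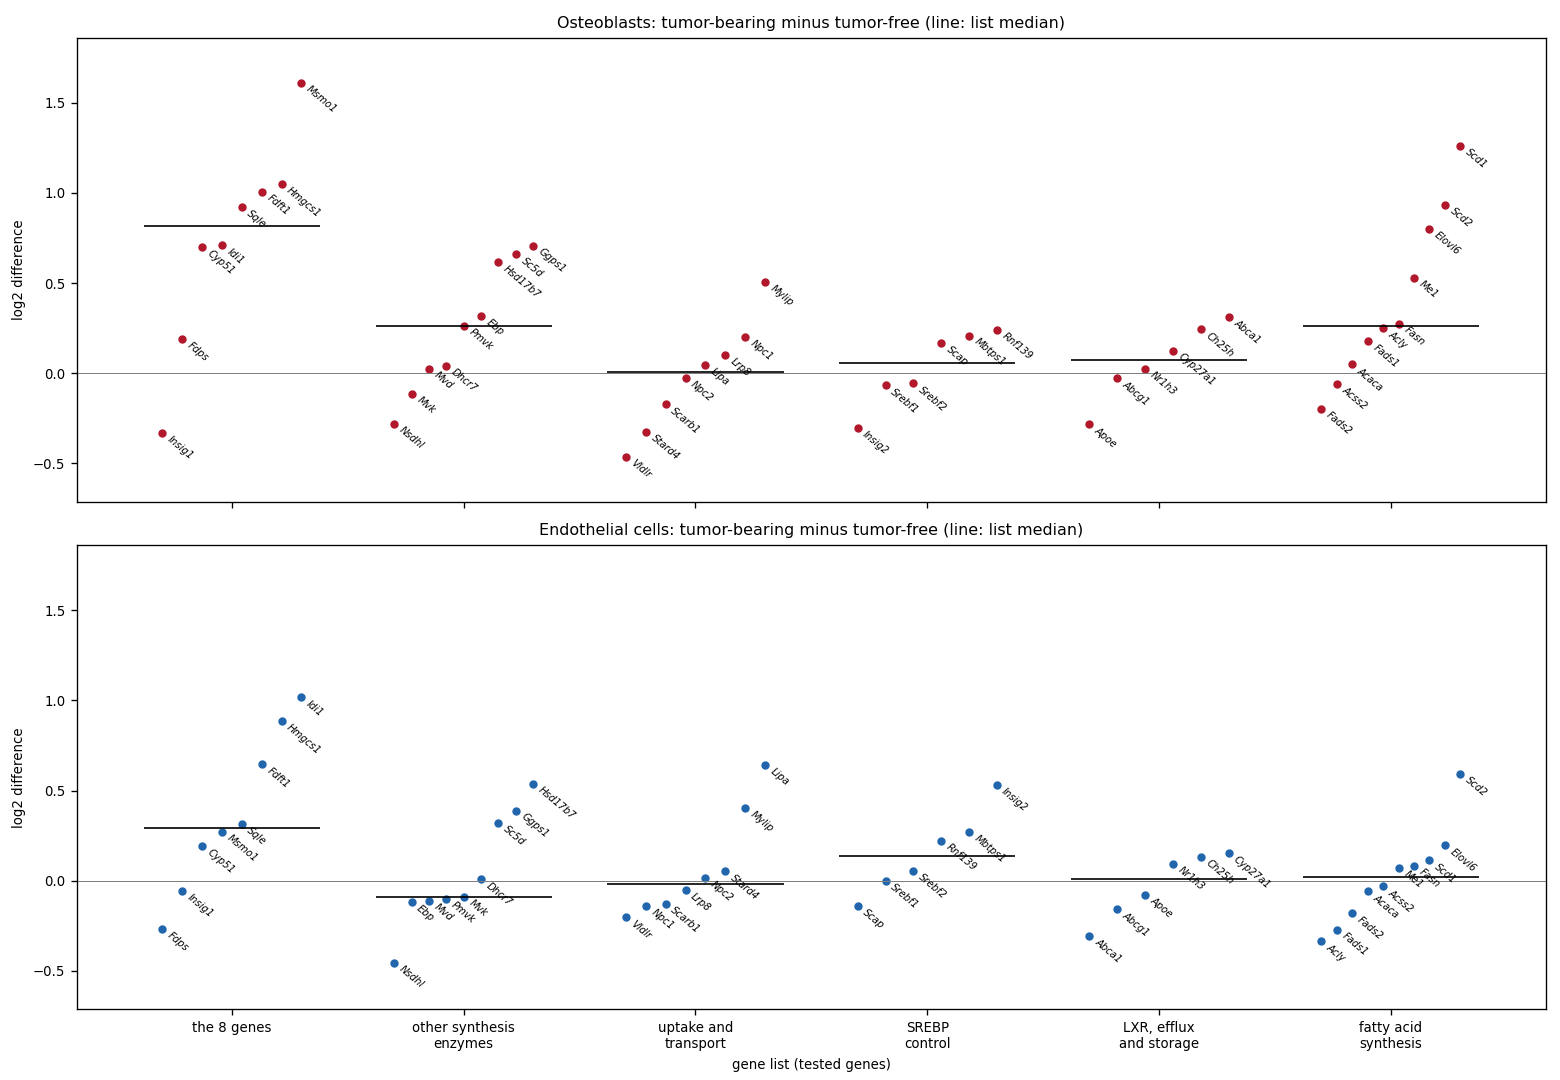
Log2 difference, tumor-bearing minus tumor-free, of each tested gene of 6 lists in osteoblasts (upper panel) and endothelial cells (lower panel); the line is the list median. The median of the 8 genes is 0.81 in osteoblasts, and those of the other 5 lists lie between 0.01 and 0.26; in endothelial cells the medians lie between -0.09 and 0.29.

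The cell types themselves differed in related genes in both states. None of the 9 other synthesis enzymes was called in either comparison of the cell types. Of all genes, 4.89% were called higher and 5.68% lower in osteoblasts of tumor-bearing mice, and 12.4% in either direction in tumor-free mice. Vldlr was higher in osteoblasts, by 4.02 in tumor-bearing mice (limma adjusted p = 2.4e-07) and by 4.29 in tumor-free mice (1.3e-07). Insig2 was higher in osteoblasts by 1.59 (limma adjusted p = 0.0115) in tumor-bearing mice and by 2.43 (0.000758) in tumor-free ones. In the other direction stood the HDL receptor gene Scarb1, at -0.97 (limma adjusted p = 0.0231) in tumor-bearing mice and -0.93 (0.0254) in tumor-free ones. Mylip was at -1.19 (limma adjusted p = 0.0233) in tumor-bearing mice and -1.30 (0.0131) in tumor-free ones. Abca1 was at -0.72 (limma adjusted p = 0.0263) in tumor-bearing mice and -1.33 (0.000592) in tumor-free ones. Apoe was called in tumor-bearing mice, at -0.89 (limma adjusted p = 0.0290), and Abcg1 in tumor-free mice, at -0.59 (limma adjusted p = 0.0282). Srebf2 differed by 0.14 in tumor-bearing mice and 0.26 in tumor-free ones and was not called.

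Of the 9 fatty acid synthesis genes other than Scd1, 5 were called higher in osteoblasts of tumor-bearing mice and 3 in those of tumor-free mice, against 4.89% and 5.38% of all genes. Scd1 passed the filter on dim signals through its osteoblast arrays alone and so had to be higher in them. As a description, it stood at 8.08 to 8.58 in tumor-bearing osteoblasts against 5.11 to 5.43 in tumor-bearing endothelial cells, and at 6.32 to 8.07 in tumor-free osteoblasts against 5.03 to 5.27 in tumor-free endothelial cells. The desaturase gene Fads2 differed by 1.83 (limma adjusted p = 0.00129) in tumor-bearing mice and 1.84 (0.00109) in tumor-free ones, and the malic enzyme gene Me1 by 2.19 (0.00402) in tumor-bearing mice and 1.73 (0.0132) in tumor-free ones. Acaca, the acetyl-CoA carboxylase at the head of fatty acid synthesis, differed by 1.03 (limma adjusted p = 0.00861) in tumor-bearing mice and 0.93 (0.0135) in tumor-free ones. The calls of Vldlr and Fads2 held in all 22 alternative settings in both comparisons, while those of Scarb1, Mylip, Abca1, Apoe, Abcg1, Me1, Acaca and Insig2 were lost in some settings of at least 1 comparison.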

How the data were processed

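RNA of the sorted cells was measured on 12 Affymetrix Mouse Gene arrays. The labels' protocols give a Pico Pure isolation of total RNA from 5000 cells, NuGEN amplification by single primers and biotin labelling. The submitters' processing notes name the Bioconductor package affy. Not given in the sources used here are its version, the summary method and how probe sets were defined. Values were taken as deposited by the authors, as log2 signals already normalized between arrays (array medians 5.95 to 6.04). Amplification from few cells can distort transcript proportions, and values near the floor understate fold changes. The number of arrays limits the precision.

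Of 34760 probe sets, 21640 had a single gene symbol in the platform annotation, 1321 had several and 11799 none; 21553 of the first were matched by Entrez number to a RefSeq table of GRCm38.p6. The brightest probe set stood for a gene, giving 19937 genes. Tested were the 14217 genes over their array's 40th percentile in at least 3 of 12 arrays, regardless of group. All arrays entered 1 fit in limma 3.58.1 (R 4.3.3, jsonlite 2.0.0) with a coefficient for each group and eBayes moderation, whose prior had 2.36 degrees of freedom. P-values are two-sided, with Benjamini-Hochberg adjustment across all tested genes and a threshold of 0.05. The steps were tested on simulated data. Figures were drawn with matplotlib 3.10.9 in Python 3.11.15 with pandas 2.3.3.

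Groups follow the sample titles. All 8 genes are named throughout. The other lists contribute up to 4 genes per contrast that passed the threshold, the 2 smallest p in each tumor contrast, and Srebf2 and Insig2 in every contrast, and the 8 genes most like the average pattern are named too. Krt8 and the values by probe set were singled out after they were seen. The 8 genes and the lists were chosen with earlier results of these data known, so they are no independent support for any pattern. Alternatives changed the scaling (quantile, median centring), the filter (none, 60th percentile), the probe sets (mean per gene), the variance prior (trend, robust), the weighting of arrays and the samples fitted (the compared groups alone); others added the replicate number as a block, left out replicate 3 of both osteoblast groups or left out each array in turn.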

Additional observations from a re-analysis of the deposited data

How the results depend on the processing

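Of 880 log2 differences of the 8 genes (40 results under 22 alternatives), 844 kept their direction and side of the threshold, 11 lost the call, 7 gained one and 18 changed sign. In osteoblasts, tumor-bearing minus tumor-free, the number of the 8 called was 0 and ranged from 0 to 1 when single arrays were left out. In tumor-bearing mice, osteoblasts minus endothelial cells, it was 3, Msmo1 included, and ranged from 1 to 4; in tumor-free mice it was 0, ranged from 0 to 1 and was 1 with array weights (Insig1, limma adjusted p = 0.0493). Other single-array gains were Fdps in tumor-bearing mice without tumor-bearing osteoblast replicate 2 (limma adjusted p = 0.0422) or tumor-free osteoblast replicate 1 (0.0467), and in tumor-free mice Cyp51 without tumor-free osteoblast replicate 1 (0.0478) and Msmo1 without tumor-bearing osteoblast replicate 1 (0.0492) or 2 (0.0434). Sqle lost its call in tumor-bearing mice without replicate 3 of both osteoblast groups (limma adjusted p = 0.0888). The median osteoblast difference of the 8 genes was 0.55 without tumor-free replicate 1 and 1.28 without tumor-free replicate 2. The causes of these changes were not tested.

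Signs turned for small differences. Leaving out single arrays, the osteoblast difference ranged from -0.12 to 0.45 for Fdps and from -0.18 to 0.014 for Srebf2, and the endothelial one from -0.20 to 0.058 for Insig1. The difference of the 2 tumor effects ranged from -0.23 to 0.57 for Hmgcs1, from -0.82 to 0.47 for Idi1 and from -0.20 to 0.82 for Fdft1. Osteoblasts minus endothelial cells ranged from -0.81 to 0.48 for Idi1 in tumor-bearing mice, and in tumor-free mice from -0.29 to 0.32 for Idi1 and from -0.056 to 0.76 for Fdft1. With the mean of its probe sets Idi1 had a difference of tumor effects of 0.28 and a cell type difference in tumor-bearing mice of 0.35. With array weights its cell type difference in tumor-free mice was -0.16. Scap in osteoblasts was -0.00369 without replicate 3 of both osteoblast groups.

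Over all genes tested, the number called was 8 for osteoblasts (0 to 45 under the alternatives), 2 for endothelial cells (2 to 6), 4 for the difference of tumor effects (0 to 8), 1503 for the cell types in tumor-bearing mice (1147 to 1779) and 1760 in tumor-free mice (1241 to 1894). Arrays of the same number in different groups did not deviate together (correlations from -0.05 to 0.07 over all 12 pairs). This cannot settle whether arrays of the same number share mice, which the labels do not state. With the replicate block 0, 0, 0, 3 and 0 of the 8 genes were called in the 5 comparisons, in the order just given. Of all genes, 1, 2, 1, 1402 and 1653 were called. The 3 arrays per group limit what can be seen, and Msmo1 in endothelial cells lay in the range where log2 values compress.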
